A study of Homo sapiens with 10 samples.

Results

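The fetal globin switching regulators described here are 10 named genes, BCL11A, ZBTB7A, MYB, SOX6, LIN28B, IGF2BP1, IGF2BP2, IGF2BP3, HIC2 and NFIA, which were matched by symbol among the 20535 genes listed for each library. All 10 were listed, and all 10 passed a filter on low values (average over the libraries of 1 TPM or more) that 10127 genes passed. TPM gives the abundance of a transcript relative to the whole library and is corrected for transcript length, so it can be compared between genes.

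The RNA came from K562 cells, a human erythroleukemia line that transcribes the embryonic and fetal globin genes, and each of 5 groups had 2 libraries, 10 in all. The HS2 element is an enhancer in the locus control region of the β-globin cluster, and the question was how repressing it with different effectors changes gene expression. The control group carried sgGal4, a guide RNA with no target in the genome. Its sample titles name no effector. In comparisons with it, targeting HS2 and carrying a given effector therefore cannot be told apart. In the other 4 groups the cells carried HS2 guides (sgHS2), a combination of all 4 guides by a figure legend of the study. The sample titles say only sgHS2. Group K had dCas9-KRAB and group L had dCas9-LSD1, while the dual-effector groups were enCRISPRi-LK (LK, dCas9-LSD1 with KRAB recruited through MCP) and enCRISPRi-KL (KL, dCas9-KRAB with LSD1 recruited through MCP). KRAB is a repressor domain, LSD1 is a histone demethylase, and MCP is a coat protein that binds hairpins placed in the guide RNA. By the methods the cells were lentivirally transduced pools with doxycycline-inducible dCas9 fusions, so a library reads a population and not a clone. In such bulk RNA, fewer cells of a type and less RNA per cell cannot be told apart.

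Human red cell precursors express embryonic, then fetal and then adult genes of the β-globin cluster, an order known as globin switching. BCL11A and ZBTB7A are zinc finger repressors that silence the fetal genes HBG1 and HBG2, with SOX6 and MYB acting on the same side, while the RNA-binding protein LIN28B, which blocks maturation of let-7 miRNAs, and the IGF2BP proteins, whose mRNAs let-7 targets, are fetal-stage factors that lower BCL11A. HIC2 is a fetal-stage repressor of BCL11A transcription, and NFIA is a nuclear factor I family member that promotes erythroid differentiation.

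Several facts of the libraries bear on all values. KDM1A, the LSD1 gene, was at 84.2 to 104.7 TPM in the libraries labelled L and at 25.2 to 33.5 TPM in the other 8, although LK and KL constructs also hold LSD1. ZNF10, the source of a KRAB domain in common use, was at 1.18 and 3.80 TPM in the libraries labelled K and at 31.5 to 365.0 TPM in those labelled L, LK and KL. The levels therefore do not follow the constructs in every group, and K, L, LK and KL refer below to the libraries labelled so. KDM1A and ZNF10 were both raised in the libraries labelled L, while in those labelled LK and KL only ZNF10 was. With KL, KDM1A was at 26.80 and 26.60 TPM, within the range of sgGal4 (25.21 and 33.51 TPM). Values given for K, L, LK or KL, and for dual against single effectors, therefore rest on labels that this check does not bear out. For KL this concerns the LSD1 part. The 13 mitochondrially encoded genes took 53.6% of the listed TPM in sgGal4 replicate 1 and 39.9% to 46.6% in the other 9 libraries. Of the erythroid markers, 11 of 11 passed the filter, against 0 of 8 B-lymphoid and plasmacytoid dendritic markers, which are cells that also express BCL11A. The erythroid markers together were at 3928 to 3934 TPM with sgGal4, 3382 to 3544 with K, 4095 to 4989 with L, 2213 to 2268 with LK and 2649 to 2786 with KL, globin genes included.

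The let-7 miRNAs are shown first because they link LIN28B, the IGF2BP genes and HIC2. Mature let-7 was not measured in these libraries. All 9 mature sequences of the family in the RefSeq table (GRCh38.p14) have the same seed, bases 2 to 8, and 3 of them are printed 5′ to 3′ with the seed in capitals.
hsa-let-7a-5p: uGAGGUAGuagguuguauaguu
hsa-let-7g-5p: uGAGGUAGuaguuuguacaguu
hsa-miR-98-5p: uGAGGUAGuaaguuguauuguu

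A 3′ untranslated region (UTR) can pair with this seed where it holds CTACCTC, its reverse complement, which was searched on the transcribed strand of the longest coding transcript of each gene (GENCODE release 44 mapped to GRCh37, or hg19). LIN28B held 4 matches in 4549 bases, IGF2BP1 held 4 in 6701 bases and HIC2 held 4 in 4720 bases. IGF2BP2, IGF2BP3 and NFIA held 1 each, and BCL11A, ZBTB7A, MYB and SOX6 held none in these windows. Over 17486 genes with a 3′ UTR, 10.5% held at least 1 match, at 0.0634 matches per 1000 bases. Longer regions hold more of them by length alone, and among UTRs of like length a match was found in 24.1% for LIN28B, 32.5% for IGF2BP1, 24.7% for HIC2 and 36.6% for NFIA. The share was 13.5% for IGF2BP2 and 12.4% for IGF2BP3. For BCL11A, ZBTB7A, MYB and SOX6 it was 15.9%, 23.6%, 7.83% and 31.3%, so most UTRs of like length also held none. A match of these letters is a description and not a tested site.

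**Figure D1:**
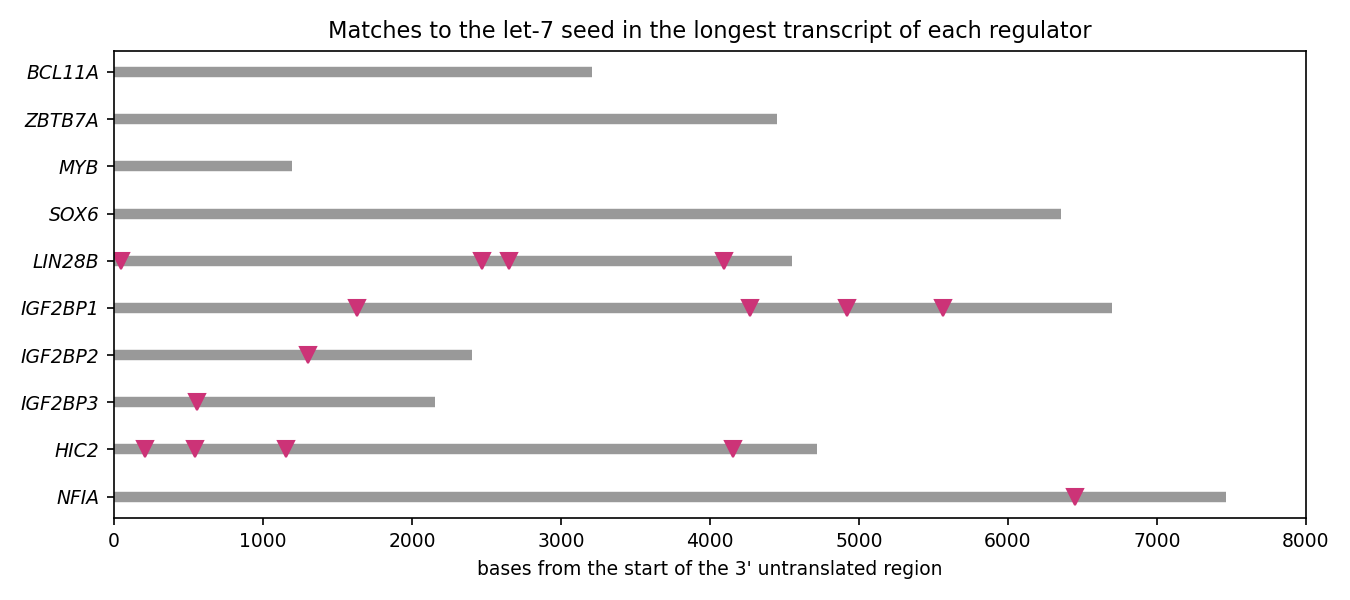
Grey bars show the length of the 3′ untranslated region of the longest coding transcript of each regulator, in bases from its start, and triangles mark the matches to the let-7 seed. LIN28B, IGF2BP1 and HIC2 carry 4 matches each, and the bars of BCL11A, ZBTB7A, MYB and SOX6 carry none.

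Stretches of 24 bases with the match in capitals are given for the 5 genes of the let-7 axis, to show that the letters beside the match differ between genes. They lie at chr6:105526687-105526710 (plus strand) for LIN28B, chr17:47131060-47131083 (plus) for IGF2BP1, chr3:185362007-185362030 (minus) for IGF2BP2, chr7:23351413-23351436 (minus) for IGF2BP3 and chr22:21801228-21801251 (plus) for HIC2, in hg19, each within 1 exon in the 3′ UTR.
LIN28B: acccggttgcaaagtCTACCTCat
IGF2BP1: cagcagtgctagtaaCTACCTCac
IGF2BP2: aacacacagaagaagCTACCTCag
IGF2BP3: tgcatttttactcaaCTACCTCag
HIC2: ggggtcccagcccgtCTACCTCcc

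The 10 regulators covered a wide range of levels in these cells. Averaged over the 10 libraries, IGF2BP1 (136.0 TPM) and MYB (111.7 TPM) were higher than 94.7% and 93.3% of the genes tested. IGF2BP3 (41.7 TPM), IGF2BP2 (39.1 TPM), HIC2 (25.5 TPM), LIN28B (20.9 TPM), ZBTB7A (17.8 TPM) and NFIA (15.7 TPM) lay between the 53.3 and 79.7 percentiles. SOX6 (7.20 TPM) and BCL11A (4.47 TPM) had the lowest levels of the 10, at the 30.9 and 19.8 percentiles. LIN28B, the IGF2BP genes and HIC2 were thus each above 20 TPM on average, and BCL11A was at the bottom of the list. Whether the level of BCL11A depends on those genes was not tested.

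Groups were compared on log2(TPM + 1) by a single limma fit of the 10 libraries, with Benjamini-Hochberg adjustment over the 10127 genes, and an adjusted p under 0.05 was taken as a call. Fold changes on this scale understate those of low genes. The labels do not say whether replicates are separate cultures, so the tests measure the spread between these libraries only. The 4 comparisons with sgGal4 share its 2 libraries and are therefore given side by side. Of the 10 regulators, 1 was called in KL against sgGal4, namely BCL11A, which was higher, where 1.36% of all genes tested were called in either direction and 0.632% as higher. In K against sgGal4 0 of 10 were called with a background of 1.62%, in L 0 of 10 with 0.869%, in LK 0 of 10 with 2.00%, and in all sgHS2 libraries 0 of 10 with 3.26%. At an unadjusted p under 0.05 the counts were 3, 2, 1 and 2 of 10 in the same order, against 15.6%, 12.8%, 14.2% and 17.1% of all genes.

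**Figure D2:**
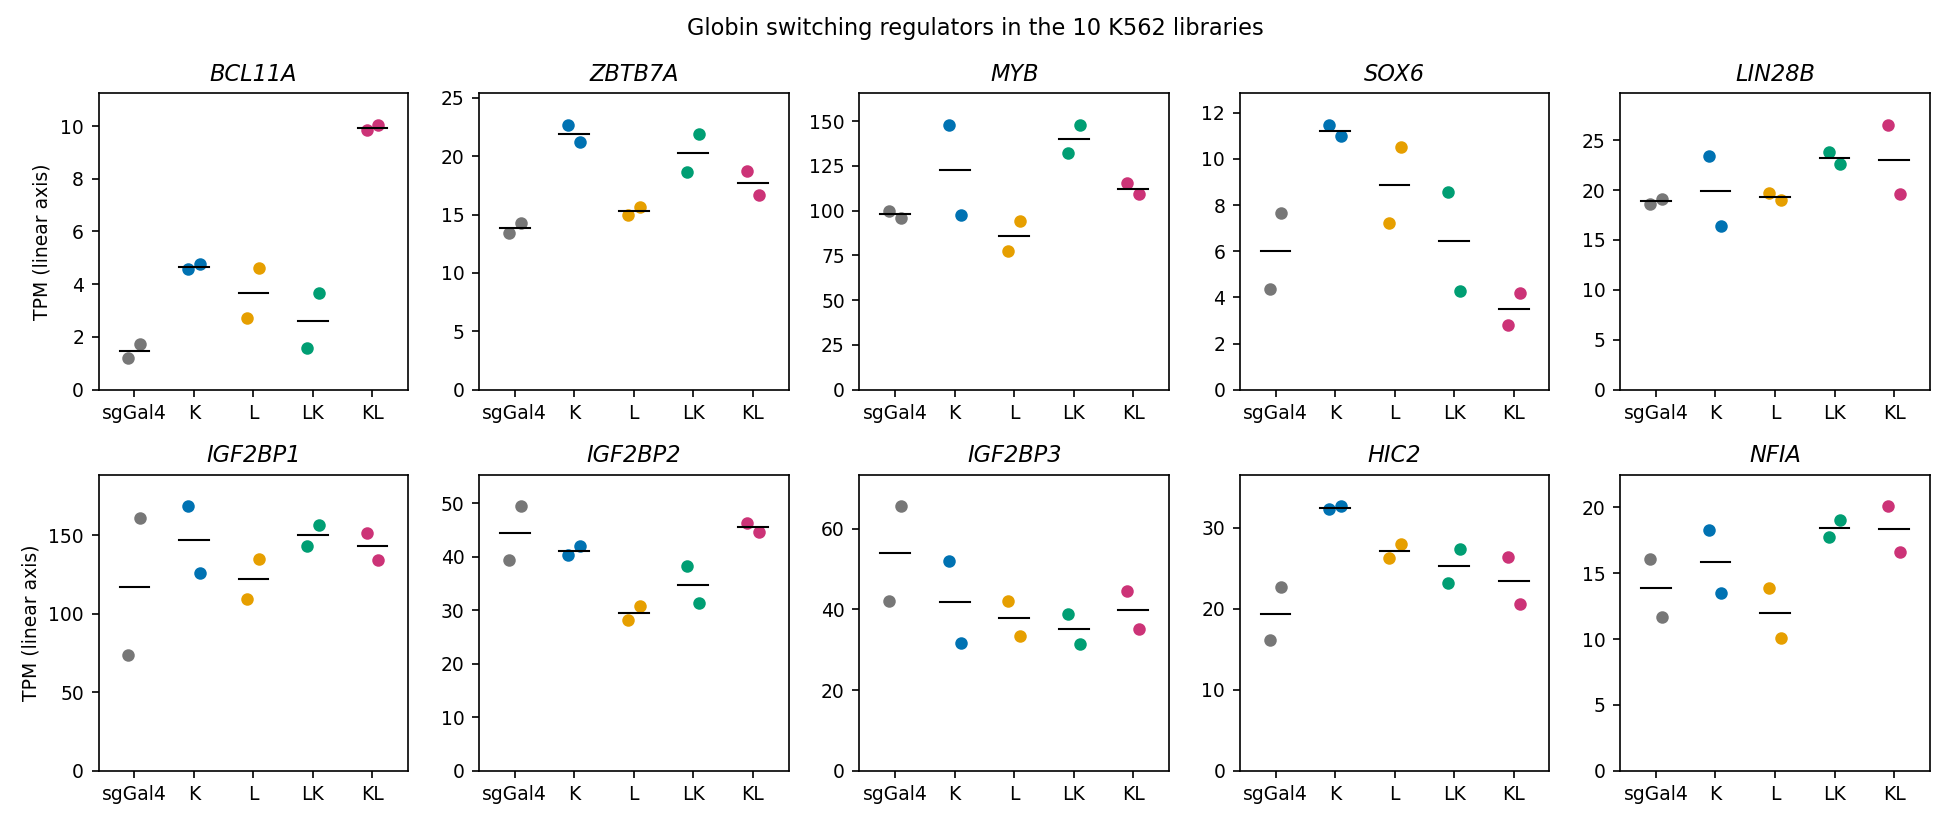
TPM of each regulator on a linear axis from 0 in the 10 libraries, with 1 point per library and a bar at the mean of the 2 libraries of each group. The KL libraries of BCL11A, at 9.84 and 10.03 TPM, sit above the other 8, while most other panels show groups whose points overlap.

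BCL11A (ENSG00000119866, chromosome 2, 60677655 to 60781602, minus strand, hg19) was at 1.20 and 1.72 TPM in the sgGal4 libraries. It was at 4.58 and 4.75 TPM with K, 2.70 and 4.63 TPM with L, 1.58 and 3.65 TPM with LK, and 9.84 and 10.03 TPM with KL. Both KL libraries were thus above all 8 others, both K and both L libraries were above both sgGal4 libraries, and the lower LK library lay between the sgGal4 libraries. The mean rose from 1.46 ± 0.368 TPM (SD, n = 2) with sgGal4 to 9.93 ± 0.134 TPM with KL, a ratio of 6.80 and a log2 fold change of 2.16 (95% confidence interval 1.27 to 3.05, limma adjusted p = 0.0168). In order of the means the groups were KL, K, L, LK and sgGal4, and each neighbouring pair below KL overlapped. The call was lost without KL replicate 1 (adjusted p = 0.0959), without KL replicate 2 (0.134), without sgGal4 replicate 1 (0.114) and when low values were not filtered (0.0696).

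The differences of BCL11A in the other comparisons did not pass the adjustment in limma. The log2 fold change from sgGal4 was 1.21 with K (95% confidence interval 0.32 to 2.10, adjusted p = 0.164), 0.90 with L (0.01 to 1.79, adjusted p = 0.386) and 0.50 with LK (-0.39 to 1.39, adjusted p = 0.642). Over all 8 sgHS2 libraries it was 1.19 (0.49 to 1.89, adjusted p = 0.0662). Between the dual-effector groups, LK was below KL by -1.66 on the log2 scale (-2.55 to -0.77, adjusted p = 0.135), where 0 of 10 regulators and 0.385% of all genes were called (1 regulator and 9.84% of genes at an unadjusted p under 0.05). Against the mean of the 3 other sgHS2 groups, KL differed by 1.29 (0.56 to 2.01, adjusted p = 0.144), where 0 of 10 regulators and 0.553% of all genes were called (3 regulators and 10.8% of genes unadjusted). That KL differed from the other effectors is therefore not shown by these tests, although its libraries did not overlap with theirs. In this comparison 2 regulators (BCL11A and IGF2BP2) were higher and 1 (SOX6) lower without overlap, against 6.61% and 5.59% of all genes.

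BCL11A is also a gene of B cells and plasmacytoid dendritic cells, so markers of those cells were read beside it. Of the 8 markers, 7 were listed at 0 in all libraries, MS4A1, CD79A, CD79B and CLEC4C among them. A listed 0 may also mean that a gene was not quantified, since MTA1 and EHMT2, which most cells use, were listed at 0 in all libraries too. PAX5 was listed at 0.02 TPM in sgGal4 replicate 1, and all 8 were listed at 0 in both KL libraries, where BCL11A was highest. T-lymphoid markers summed to 2.30 to 10.9 TPM with KL, 3.2 to 10.7 with L, 9.70 to 14.8 with K, 9.80 to 28.8 with LK and 27.3 to 34.9 with sgGal4, most of it from CD3D, while CD3E, CD2 and LCK were listed at 0. Among 6 megakaryocytic markers, ITGA2B was at 4.81 and 1.83 TPM with KL and at 0 to 1.23 TPM in the other libraries, and GP9 and PF4 were listed at 0. The 6 markers summed to 53.8 to 62.6 TPM with KL and 60.2 to 109.0 TPM in the other groups, nearly all of it from GP1BB. ZNF10, at 1.43 ± 0.651 TPM with sgGal4 and 362.4 ± 3.60 TPM with KL, was also highest in the libraries with the most BCL11A, and its part in the result was not tested.

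**Figure D3:**
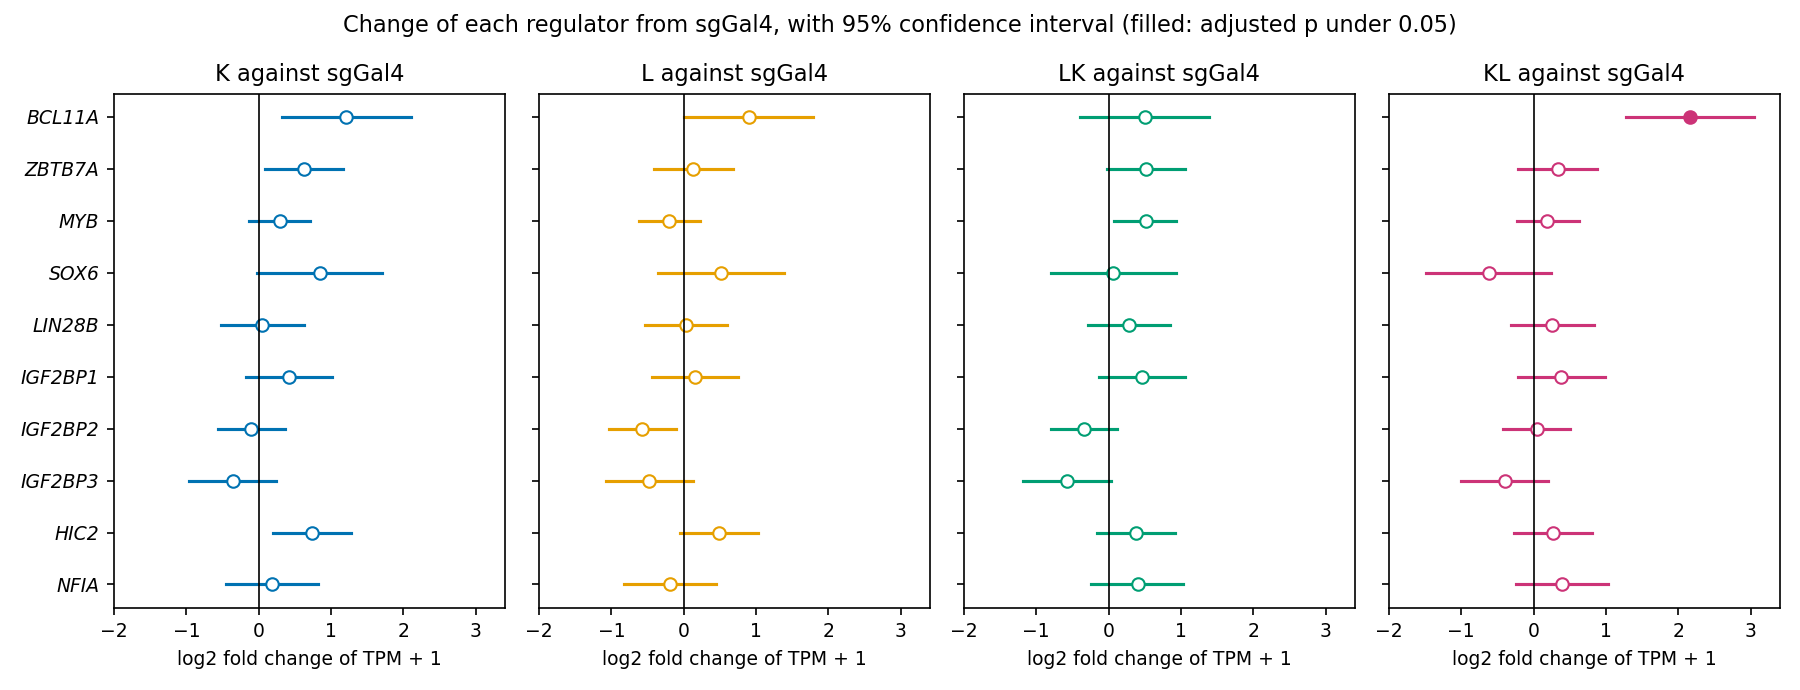
Log2 fold change of TPM + 1 from sgGal4 for each regulator with K, L, LK and KL, with lines for the 95% confidence interval and a filled point where the adjusted p was under 0.05. The single filled point is BCL11A with KL, at 2.16, and most other intervals include 0.

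Globin genes were read in the same libraries, among them the fetal genes HBG1 and HBG2, which BCL11A silences. HBG2, a fetal γ-globin gene, was at 941.2 and 673.1 TPM with sgGal4 and at 222.5 and 228.7 TPM with KL. HBE1, the embryonic ε-globin gene, was at 1376 and 1620 TPM with sgGal4 and at 384.4 and 361.3 TPM with KL. HBG2 and HBE1 had their lowest libraries where BCL11A had its highest, and both lie under the control of the HS2 enhancer that the guides target. Not all globin genes followed them. HBZ, the embryonic ζ-globin gene of the α-globin cluster, was at 1034 and 940.0 TPM with sgGal4 and at 1457 and 1659 TPM with KL, and rose by 0.66 on the log2 scale (limma adjusted p = 0.0340). That call held in 3 of 9 other settings, was lost under all 3 other scalings (adjusted p between 0.101 and 0.146), and held in 2 of 10 fits with a library left out, those without an L library. HBG1 fell by 1.13 with KL (limma adjusted p = 0.00994, held in 8 of 10 such fits and lost without KL replicate 2 or sgGal4 replicate 1), while HBD, HBB, HBA1, HBA2 and HBQ1 were not called with KL and HBM was listed at 0 in all libraries. In limma HBG2 fell by 1.81 on the log2 scale with KL (adjusted p = 5.47e-05) and by 1.02 with LK (adjusted p = 0.00556), while BCL11A with LK overlapped with sgGal4. The HBG2 call with LK was lost without LK replicate 1 (adjusted p = 0.0788), when low values were not filtered (0.0584) and without the variance trend (0.149). What part, if any, BCL11A had in the globin levels was not tested.

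**Figure D4:**
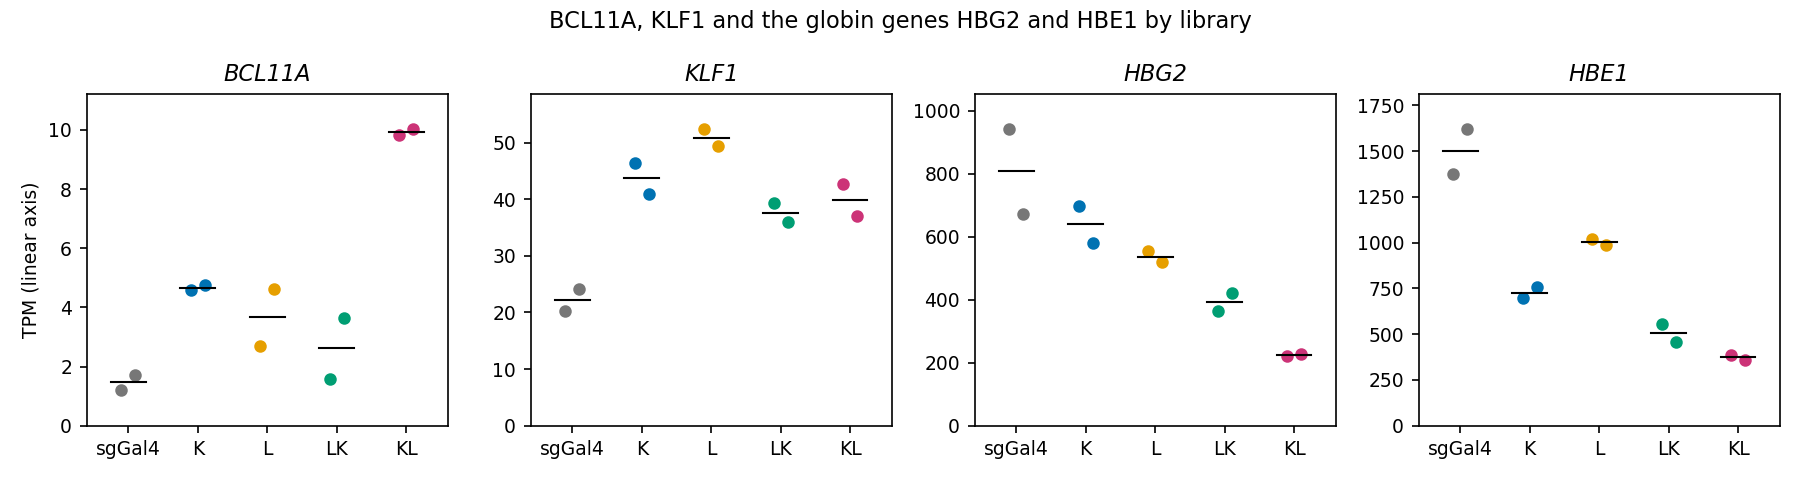
TPM of BCL11A, KLF1, HBG2 and HBE1 on linear axes from 0 in the 10 libraries, with bars at group means. BCL11A is highest and HBG2 and HBE1 are lowest with KL, and KLF1 is lowest in both sgGal4 libraries.

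ZBTB7A (chromosome 19, 4043301 to 4066897), the second repressor of γ-globin, was at 13.44 and 14.30 TPM with sgGal4. It was at 22.65 and 21.19 TPM with K, 14.99 and 15.63 TPM with L, 18.67 and 21.86 TPM with LK, and 18.77 and 16.67 TPM with KL. As deposited, all 8 sgHS2 libraries lay above both sgGal4 libraries, a pattern that 6.53% of genes tested showed, but the groups overlapped once mitochondrially encoded genes were removed and the values rescaled, when the highest sgGal4 and the lowest L library were both at 15.4. By size factors they stayed apart, at 15.2 to 22.1 against at most 15.1 with sgGal4. As deposited, ZBTB7A was the 1 regulator of 10 with this pattern. The log2 fold change was 0.40 over all sgHS2 libraries (95% confidence interval -0.03 to 0.83, limma adjusted p = 0.335) and was largest with K at 0.62 (0.08 to 1.17, adjusted p = 0.252). By mean the order was K, LK, KL, L and sgGal4, with overlaps between K and LK and between LK and KL.

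SOX6 (chromosome 11, 15987995 to 16761138), an SRY-box factor that acts with BCL11A, was at 4.38 and 7.65 TPM with sgGal4. It was at 11.46 and 10.98 TPM with K, 7.21 and 10.51 TPM with L, 8.58 and 4.29 TPM with LK, and 2.79 and 4.17 TPM with KL. Both K libraries were above and both KL libraries below the range of sgGal4, so that the group with the most BCL11A had the least SOX6. None of the differences passed the adjustment. The log2 fold change from sgGal4 was 0.84 with K (limma adjusted p = 0.337) and -0.62 with KL (adjusted p = 0.521), KL differed from the mean of the other sgHS2 groups by -1.10 (95% confidence interval -1.80 to -0.39, adjusted p = 0.207), and the dual effectors differed from the single ones by -0.96 (-1.57 to -0.35, adjusted p = 0.400). In the comparison of dual with single effectors, 0 of 10 regulators and 0.0889% of all genes were called (2 regulators and 7.45% of genes at an unadjusted p under 0.05).

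SOX5, the close relative of SOX6, was at 22.90 and 11.67 TPM with sgGal4, 5.67 and 2.74 TPM with K, 12.83 and 13.59 TPM with L, 4.54 and 4.86 TPM with LK, and 20.16 and 14.94 TPM with KL. In limma it fell by 1.80 on the log2 scale with K (adjusted p = 0.0349) and by 1.61 with LK (adjusted p = 0.0464). The call with K held in 7 of 9 other settings and the call with LK in 3 of 9. Both calls were lost without sgGal4 replicate 1 (adjusted p = 0.227 and 0.293), and with each library left out in turn the call held in 5 of 10 fits for K and 3 of 10 for LK. SOX6 made up 73.5% ± 9.28 (SD, n = 2) of the summed TPM of the pair with K, 56.1% ± 13.1 with LK, 39.8% ± 5.40 with L, 27.8% ± 16.6 with sgGal4 and 17.0% ± 6.83 with KL. SOX6 was thus the larger of the pair in both K libraries and SOX5 in all L, KL and sgGal4 libraries.

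**Figure D5:**
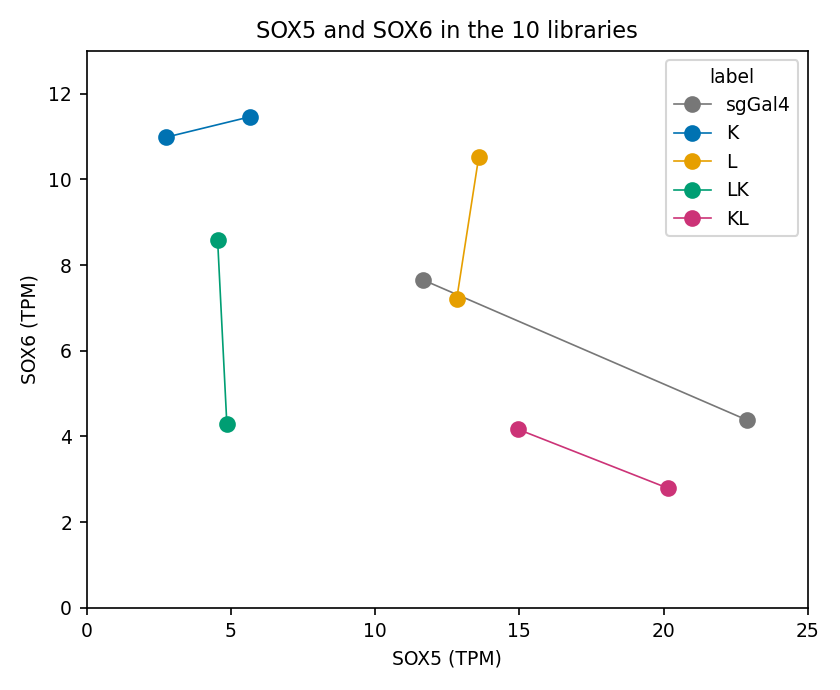
TPM of SOX5 (horizontal) against SOX6 (vertical) in the 10 libraries, with a line joining the 2 libraries of each group. The K libraries lie at low SOX5 and high SOX6, at 5.67 and 2.74 against 11.46 and 10.98 TPM, and the KL libraries at high SOX5 and low SOX6.

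MYB (chromosome 6, 135502446 to 135540311), a proto-oncogene of erythroid progenitors, was at 100.04 and 96.13 TPM with sgGal4. It was at 147.6 and 97.46 TPM with K, 77.49 and 93.94 TPM with L, 131.9 and 147.7 TPM with LK, and 115.2 and 109.2 TPM with KL. Both L libraries were below and all 4 dual-effector libraries above the sgGal4 libraries as deposited, but the L and the KL libraries overlapped with sgGal4 after rescaling without mitochondrially encoded genes or by size factors. The log2 fold change was 0.51 with LK (95% confidence interval 0.08 to 0.93, limma adjusted p = 0.256), -0.20 with L (-0.62 to 0.23, adjusted p = 0.739) and 0.19 with KL (-0.23 to 0.62, adjusted p = 0.727). K was above L by 0.49 (0.06 to 0.91, adjusted p = 0.533). The 2 K libraries differed by more than the K and L means, so MYB gave no firm order among effectors.

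LIN28B (chromosome 6, 105384491 to 105531207) was at 18.58 and 19.15 TPM with sgGal4. It was at 23.44 and 16.38 TPM with K, 19.69 and 18.96 TPM with L, 23.77 and 22.60 TPM with LK, and 26.49 and 19.60 TPM with KL. Every neighbouring pair of groups overlapped in the order LK, KL, K, L and sgGal4. As deposited, the LK and the KL libraries still lay above both sgGal4 libraries, as 24.7% and 24.3% of all genes did. Without mitochondrially encoded genes or by size factors, the LK libraries stayed above and the KL libraries overlapped. Across the 4 comparisons with sgGal4 the log2 fold change was 0.03 to 0.28, and the widest bound of the intervals was 0.85 (LK, limma adjusted p = 0.692), so a change of 2-fold on this scale lay outside each interval. LIN28A, its paralogue, which has the same role in embryonic stem cells, was listed at 0 to 0.10 TPM.

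IGF2BP1 (chromosome 17, 47074747 to 47133507) was at 73.72 and 161.1 TPM with sgGal4. It was at 168.6 and 126.0 TPM with K, 109.5 and 135.0 TPM with L, 143.4 and 156.8 TPM with LK, and 151.5 and 134.4 TPM with KL. The 2 sgGal4 libraries spanned most of the range of all others, and replicate 1, the lowest of the 10, was also the library with the most mitochondrial RNA, although it remained lowest at 84.5 after those genes were removed. The log2 fold changes from sgGal4 were 0.16 to 0.46 (limma adjusted p between 0.497 and 0.876), and all 4 turned negative, to between -0.40 and -0.10, without sgGal4 replicate 1. Without sgGal4 replicate 2, IGF2BP1 alone among the other 9 regulators was called, with K, LK, KL and all sgHS2 libraries, so its calls rest on 1 control library.

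IGF2BP2 (chromosome 3, 185360918 to 185542830) was at 39.43 and 49.45 TPM with sgGal4. It was at 40.35 and 41.92 TPM with K, 28.22 and 30.80 TPM with L, 38.24 and 31.34 TPM with LK, and 46.29 and 44.68 TPM with KL. As deposited, the L libraries were the lowest and did not overlap with any other group. The share of all genes with this pattern was not counted. Without mitochondrially encoded genes they overlapped with LK, at 29.0 and 31.3 against 37.1 and 30.4. By size factors they stayed apart, at 28.7 to 30.8 against 31.1 to 37.5 with LK. The log2 fold change of L from sgGal4 was -0.57 (95% confidence interval -1.03 to -0.11, limma adjusted p = 0.271). IGF2BP3 (chromosome 7, 23349828 to 23510110) was at 42.21 and 65.60 TPM with sgGal4. It was at 52.11 and 31.76 TPM with K, 42.19 and 33.38 TPM with L, 38.90 and 31.52 TPM with LK, and 44.61 and 35.06 TPM with KL. Its sgGal4 mean was the highest of the 5 groups, and all neighbouring groups overlapped as deposited. The L and the LK libraries nonetheless lay below both sgGal4 libraries, as 20.6% and 21.0% of all genes did. The largest difference was -0.57 with LK (-1.18 to 0.03, limma adjusted p = 0.382). After rescaling, all 8 sgHS2 libraries of IGF2BP3 lay below both sgGal4 libraries, by a narrow gap. They were at 30.6 to 48.3 against 48.4 and 64.3 without mitochondrially encoded genes and at 31.2 to 47.0 against 47.4 and 59.9 by size factors. IGF2BP2 did so without mitochondrially encoded genes, where the nearest libraries were both at 45.2 after rounding, and overlapped by size factors. The share of all genes with this pattern after rescaling was not counted.

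Within the IGF2BP family, whose members bind and stabilize mRNAs, IGF2BP1 held the largest share of the summed TPM in every library. Its share was 47.5% and 58.3% with sgGal4 and between 60.9% and 71.4% in the 8 sgHS2 libraries, which did not overlap with the controls. A share within a library does not depend on how the library was scaled, but it cannot say which member changed.

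HIC2 (chromosome 22, 21771660 to 21805752) was at 16.09 and 22.62 TPM with sgGal4. It was at 32.30 and 32.64 TPM with K, 26.29 and 28.02 TPM with L, 23.12 and 27.34 TPM with LK, and 26.32 and 20.56 TPM with KL. The K libraries were above all others, and as deposited those of KL were the ones that overlapped with sgGal4, while after scaling by size factors they did not. The log2 fold change was 0.74 with K (95% confidence interval 0.20 to 1.28, limma adjusted p = 0.165), 0.49 with L (adjusted p = 0.449), 0.38 for LK (adjusted p = 0.547) and 0.27 for KL (adjusted p = 0.687). Among the sgHS2 groups, HIC2 was highest with K and had its lowest mean with KL, while BCL11A had its highest mean with KL. With sgGal4 included the 2 genes did not run in opposite order. The sgGal4 mean was the lowest for both HIC2 (19.4 TPM) and BCL11A (1.46 TPM), and K was second highest for BCL11A (4.67 TPM).

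NFIA (chromosome 1, 61330931 to 61928460) was at 16.05 and 11.69 TPM with sgGal4. It was at 18.31 and 13.47 TPM with K, 13.90 and 10.11 TPM with L, 17.78 and 19.03 TPM with LK, and 20.09 and 16.61 TPM with KL. All neighbouring groups overlapped in order of level. As deposited, the LK and the KL libraries lay above both sgGal4 libraries, as 24.7% and 24.3% of all genes did. They overlapped with sgGal4 without mitochondrially encoded genes or by size factors. The largest log2 fold change from sgGal4 was 0.40 with LK (95% confidence interval -0.24 to 1.03, limma adjusted p = 0.601). NFIA held 10.2% to 20.1% of the summed TPM of the 4 nuclear factor I genes, and NFIC, at 44.3% to 59.3%, held the most in every library.

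Taking the 10 regulators as a list, the median log2 fold change from sgGal4 was 0.35 for K, 0.08 for L, 0.39 for LK and 0.27 for KL. Over all genes tested it was 0.06, 0.00, 0.03 and 0.05 in the same order. Removing the mitochondrially encoded genes moved the median of all genes from 0.057 to -0.056 with K and from 0.028 to -0.086 with LK. The groups did not overlap with sgGal4 for 4 regulators higher and 0 lower with K, where 25.2% and 18.4% of all genes did so. With L these were 3 higher and 3 lower (20.8% and 20.6%), with LK 5 higher and 2 lower (24.7% and 21.0%), and with KL 5 higher and 1 lower (24.3% and 18.6%). These counts depend on the scaling. With mitochondrially encoded genes removed KL gave 2 higher and 3 lower and K gave 4 higher and 2 lower, and with size factors KL gave 3 higher and 2 lower and K again 4 higher and 2 lower. L gave 2 higher and 2 lower without mitochondrially encoded genes and 4 higher and 2 lower by size factors, and LK gave 4 higher and 2 lower in both. In K against L, all 10 regulators had a log2 fold change above 0 as deposited. Their median was 0.32, against 0.06 over all genes, and the smallest was 0.02, for LIN28B. The libraries of 5 regulators did not overlap, where 22.6% of all genes were higher in this way. This count was 4 both without mitochondrially encoded genes and by size factors. The median of all genes was then -0.01 and 0.003. None of the 10 was called in that comparison by limma, where 0.0395% of all genes were called (2 regulators and 8.34% of genes at an unadjusted p under 0.05). In the test of any difference among the 5 groups, 0 of 10 were called, where 1.82% of all genes were.

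Other genes of the switching pathway were read from lists. The NuRD complex is a nucleosome remodelling and deacetylase complex that BCL11A and ZBTB7A recruit. Of its 14 listed subunits 13 were tested and 0 were called by limma in any comparison with sgGal4 (0, 1, 2 and 2 for K, L, LK and KL at an unadjusted p under 0.05, against 15.6%, 12.8%, 14.2% and 14.7% of all genes), with median log2 fold changes of 0.08 to 0.14, and MTA1 was listed at 0 throughout. The ATPase CHD4 was at 122.6 to 212.0 TPM and the histone deacetylase HDAC2 at 61.1 to 103.9 TPM.

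Among 16 other factors known to act on globin switching, 15 were tested and 1, KLF1, was called in a comparison with sgGal4. KLF1, an erythroid activator that drives BCL11A and ZBTB7A transcription, was at 20.25 and 24.05 TPM with sgGal4, 46.44 and 40.91 TPM with K, 52.37 and 49.36 TPM with L, 39.25 and 35.91 TPM with LK, and 42.60 and 36.96 TPM with KL. All 8 sgHS2 libraries were above both sgGal4 libraries. In limma it rose by 0.92 on the log2 scale over all sgHS2 libraries (adjusted p = 0.00861), by 0.95 with K (adjusted p = 0.0394) and by 1.17 with L (adjusted p = 0.0190), and its log2 fold change was 0.74 for LK (adjusted p = 0.104) and 0.82 for KL (adjusted p = 0.0771). KLF1 thus had its highest mean with L and BCL11A with KL. Under other settings the KLF1 call held in 8 of 8 for all sgHS2 libraries, 5 of 9 for K and 7 of 9 for L. Without sgGal4 replicate 1 all 3 calls of KLF1 were lost, with adjusted p values of 0.113, 0.172 and 0.0929 in the same order, and with each library left out in turn the calls held in 9, 1 and 7 of 10 fits.

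Of the let-7 pathway, 8 of 9 genes were tested and 0 were called by limma in any comparison with sgGal4 (0, 1, 1 and 0 for K, L, LK and KL at an unadjusted p under 0.05). They include DROSHA (53.5 to 85.9 TPM) and DICER1 (5.93 to 20.9 TPM), the nucleases of miRNA maturation, and DIS3L2 (5.72 to 11.3 TPM), which degrades let-7 precursors marked through LIN28 proteins. Of 9 other known let-7 targets, 8 were tested and 0 were called in the comparisons with sgGal4 (2, 0, 2 and 5 unadjusted, where the shares of all genes were those given for the NuRD list). HMGA1 was at 1750 to 2183 TPM, HMGA2 at 0.61 to 3.11 TPM and MYC at 195.1 to 261.9 TPM. CCND1, the cyclin D1 gene, named here after its values were seen, was at 25.86 and 19.88 TPM with KL and at 1.63 to 10.5 TPM in the other 8 libraries. In limma it was higher with KL than in the other sgHS2 groups by 1.96 on the log2 scale (adjusted p = 0.0262). The call held in 5 of 8 other settings and in 5 of 10 fits with a library left out. BCL11A was higher by 1.29 in that comparison without passing the adjustment.

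Of 12 paralogues of the regulators, 7 were tested and SOX5 was the 1 called in comparisons with sgGal4. Several relatives were listed at or near 0, which in this file, where MTA1 and EHMT2 are also at 0, may mean that a gene was not quantified. BCL11B was listed at 0 to 0.09 TPM, ZBTB7C at 0 in all libraries and MYBL1 at 0 to 0.79 TPM, whereas ZBTB7B was at 10.9 to 26.1 TPM and MYBL2 at 25.4 to 46.7 TPM. HIC1 was at 0.32 to 3.28 TPM, below HIC2 in every library.

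The genes whose pattern over the 10 libraries was most like that of each regulator were found by Pearson's r of log2(TPM + 1) among about 6109 genes that averaged 10 TPM or more. This is a description over 5 groups that share processing, chosen as the highest of many. The closest to BCL11A were ATRAID (r = 0.948) and NOS3 (r = 0.910), both with their 2 highest libraries in KL. The closest to ZBTB7A was PUS1 (r = 0.968), to MYB COCH (0.945), to SOX6 GNG5 (0.921), to LIN28B EIF4B (0.920), to IGF2BP1 GLG1 (0.955), to IGF2BP2 UHRF1BP1L (0.918), to IGF2BP3 CHD1 (0.954), to HIC2 C16orf13 (0.946) and to NFIA ERP29 (0.944). BCL11A and SOX6 average less than 10 TPM and could not be found as partners.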

How the data were processed

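RNA-seq was read in 10 K562 libraries, 2 in each of 5 groups taken from the labels. The authors aligned reads to hg19 (STAR version 2.5.2b, by the submitters' processing notes) and deposited RSEM values in TPM, 1 per gene symbol and library. TPM holds no read totals, so depth and counting intervals are unknown. The methods name DESeq2, which needs counts, so it was not used here. The methods and the labels name different library kits.

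The 10 members and all gene lists were chosen with earlier results of these data known. Named by rule were all members, the globin genes, KDM1A and ZNF10, list genes past the threshold in a comparison with sgGal4 or among groups, and the genes most alike to each member. Other list genes given with values are examples chosen after the values were seen. Of the marker lists, 1 gene is not reported here.

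From the TPM, log2(TPM + 1) was fitted for the 10127 genes averaging 1 TPM or more in limma (version 3.58.1, R version 4.3.3) with 5 groups, 5 residual degrees of freedom, variances moderated along a trend, and Benjamini-Hochberg adjustment. The fit was tested on simulated data. Alternatives were other pseudocounts, filters, scalings and fits, a replicate block and leaving out each library.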

Additional observations from a re-analysis of the deposited data

Results flagged for a closer look

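For 3 pairs of effector groups, a regulator lay on opposite sides of sgGal4 in every library. MYB had a log2 fold change from sgGal4 of -0.20 with L and 0.51 with LK, a difference of -0.70. MYB also had -0.20 with L and 0.19 with KL, a difference of -0.39. SOX6 had 0.84 with K and -0.62 with KL, a difference of 1.46. The pattern of MYB holds for the values as deposited, since its L and KL libraries overlapped with sgGal4 after rescaling without mitochondrially encoded genes or by size factors. The differences between these pairs were not themselves tested. The nearest tested comparisons, dual against single effectors for MYB (0.30, limma adjusted p = 0.663) and KL against the other sgHS2 groups for SOX6 (-1.10, limma adjusted p = 0.207), did not pass the adjustment.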

How the results depend on the processing

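Each group had 2 libraries, and the depth behind low values is unknown, so changes that do not pass the adjustment may have been missed. In KL against sgGal4, the count of 1 regulator called became 0 without a filter on low values and 0 with a filter at a mean of 10 TPM, at which BCL11A and SOX6 are not tested, and ranged from 0 to 2 when each library was left out. For K, LK and all sgHS2 libraries against sgGal4 the count ranged from 0 to 1 when each library was left out, the 1 being IGF2BP1 without sgGal4 replicate 2. The counts of the other comparisons stayed at 0 under all alternatives run, and none of the fold changes at an unadjusted p under 0.05, nor those of HBG1, HBG2, HBZ, KLF1, SOX5 and CCND1 past the threshold, reversed. Of all 40 fold changes of the regulators from sgGal4, 12 changed sign under at least 1 alternative, the largest of them 0.46 in size. They were all 4 of IGF2BP1 without sgGal4 replicate 1, and MYB with K, SOX6 with LK, LIN28B with K and L, IGF2BP2 with K and KL, and NFIA with K and L. The log2 fold change of BCL11A with KL was 2.01 to 2.31 with a library left out and 2.10 to 2.71 under the other settings, with limma adjusted p values from 0.0162 to 0.134.

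Replicate numbers did not pair the libraries, since the deviations of same-numbered libraries correlated between -0.0213 and 0.0229 over 10 pairs of groups. With the replicate number as a block, BCL11A remained the 1 regulator called with KL (log2 fold change 2.16, adjusted p = 0.0172), the count was 0 in the other comparisons, and KLF1 with K was lost (adjusted p = 0.0571). The fit of only the groups compared was not run for the test among 5 groups, nor for all sgHS2 libraries, where it is the same fit.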
